A study of Caenorhabditis elegans with 12 samples.

Results

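The translation factor mRNAs of the nematode Caenorhabditis elegans were followed in total RNA and in RNA from the polysome fraction. The genes are the 37 of 46904 in the deposited count table whose symbol begins with eif, eef or iff, or is clu-1, iffb-1, erfa-1 or erfa-3. Genes of the ife family and ifg-1 were not taken in. Of the 5 symbols listed by name, 4 were annotated. The fifth, iftb-1, was not, and the beta subunit of eIF2 entered by its pattern as eif-2beta. By role, 8 genes were grouped under start codon scanning and eIF2, 5 encode eIF2B, 12 encode eIF3 subunits and the related clu-1, 2 encode eIF6 and eIF4A3, 8 serve elongation and 2 serve termination. The first group holds the scanning factor genes eif-1 and eif-1.A and the eIF2 subunit genes. It also takes in eif-2A, eif-2D and the eIF5B gene iffb-1, which encode neither.

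RNA was sequenced in 12 libraries from 6 liquid cultures, 3 of the genotype labelled glh1 and 3 of the genotype labelled wt. Each culture gave 1 lysate of whole worms, which was divided, so that every culture has a polysomal library from a 10 to 50% sucrose gradient and a total RNA library. The 4 groups of 3 libraries are therefore polysomal glh1, total glh1, polysomal wt and total wt. Worms of both genotypes grew at 20 °C on freeze-dried bacteria for about 40 h after hatching, when most were young adults. The labels give no allele, strain background, age in days or sex.

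Translation begins when eIF2, bound to GTP, brings the initiator tRNA to the small ribosomal subunit, and eIF1 and eIF1A hold the complex open while it scans for the start codon. The exchange factor eIF2B returns spent eIF2 to its GTP form, and phosphorylation of the alpha subunit of eIF2 blocks that exchange under stress. The large complex eIF3 organises the small subunit, eIF5B joins the subunits, the eEF1 and eEF2 proteins drive each elongation step, eIF5A helps at difficult peptide bonds, and the release factors end the chain. GLH-1 is a Vasa-like RNA helicase of germ granules, and the germline makes up much of the RNA of an adult worm.

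Library totals ran from 34520300 to 49672500 estimated counts, of which the 37 genes took 1.36 to 2.97%. Genes annotated as ribosomal RNA took 3.07 to 45.7%, and the libraries at both ends of that range, polysomal glh1 libraries 1 and 2, belong to 1 group. Polysomal glh1 library 3 stood apart from all other libraries on the first principal component, at -136, against -55.7 for the next. On the second component wt culture 1, with its polysomal library at -22.6 and its total library at -28.7, lay among the libraries labelled glh1. The mRNA of glh-1 measured 880, 906 and 1495 counts scaled to library size (CPM, counts per 1e6) in polysomal glh1 libraries, against 293, 388 and 384 CPM in polysomal wt libraries. In total RNA it measured 532, 586 and 546 CPM in glh1 libraries, against 306, 424 and 305 CPM in wt libraries. The gene was thus higher in every library labelled glh1 than in the wt libraries of its fraction, mRNA does not measure the protein, and "labelled glh1" is used as a label only. The tissue label reads whole embryo, whereas 11 to 13 of 18 embryo marker genes lay under 1 CPM in each library and the markers tested summed to 48.4 to 102 CPM. The 6 yolk protein genes of the adult intestine summed to 5085 to 27162 CPM. In polysomal RNA they summed to 8038 to 8887 CPM in glh1, and to 5085, 14146 and 14868 CPM in wt cultures 1, 2 and 3. In total RNA they summed to 16914 to 19210 CPM in glh1, and to 15054, 27162 and 23603 CPM in wt cultures 1, 2 and 3. Cultures 2 and 3 of wt were thus highest in each fraction, and the part of this in the comparisons between genotypes was not tested.

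All 37 mRNAs were detected, and elongation factors held most of their counts. Per kilobase of exon, eef-1A.1, which encodes the GTPase that brings aminoacyl-tRNA to the ribosome, had the highest level, 6252 ± 243 CPM per kb in total RNA labelled glh1 and 5444 ± 859 CPM per kb in total RNA labelled wt (SD, n = 3 each). The translocase gene eef-2 came next, at 2047 ± 18.1 in total glh1 and 1577 ± 330 in total wt. Together eef-1A.1 and eef-2 held 52.9 to 63.3% of the CPM of the 37 genes, and all 8 elongation genes held 71.9 to 87.2%. The lowest level was that of eif-2Bepsilon, the catalytic subunit of eIF2B, at 7.24 ± 0.244 CPM per kb in total glh1 and 10.0 ± 2.93 CPM per kb in total wt. The subunits of eIF2 and its exchange factor lay apart in level. In total RNA labelled glh1 the eIF2 subunits averaged 73.0 (alpha), 107 (gamma) and 130 (beta) CPM per kb, whereas the 5 eIF2B subunits averaged 7.24 to 22.8 CPM per kb. In total RNA labelled wt the eIF2 subunits averaged 77.9, 98.4 and 116 CPM per kb and the eIF2B subunits 10.0 to 28.1 CPM per kb. The 11 eIF3 subunits ran from eif-3.L, at 31.5 in total glh1 and 40.5 in total wt, to eif-3.I, at 146 in total glh1 and 124 in total wt. In the order of levels, 14 of the 36 pairs of neighbours overlapped between libraries in total glh1, and 32 of 36 overlapped in total wt, where the cultures spread more. The overlaps numbered 29 of 36 in polysomal glh1 and 27 of 36 in polysomal wt.

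**Figure D1:**
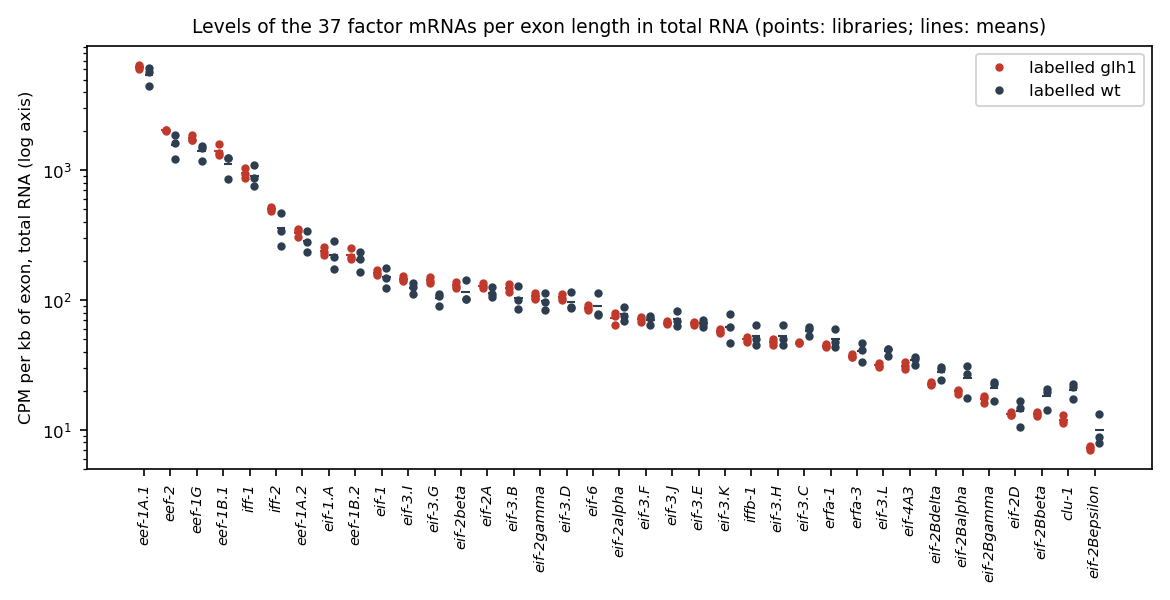
Levels of the 37 mRNAs in total RNA, as TMM-scaled CPM per kb of exon on a log axis, with 1 point per library, a line at each group mean and genes in the order of their level in total RNA labelled glh1. The elongation genes eef-1A.1, eef-2, eef-1G, eef-1B.1 and iff-1 stand at the left end, and eif-2Bepsilon, at 7.24 CPM per kb in glh1 and 10.0 CPM per kb in wt, at the right end.

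The first question is which of these mRNAs were more, or less, common in the polysome fraction than in the total RNA of the same cultures. Polysomal RNA held relatively more mRNA for the start codon scanning factors eIF1A and eIF1, for 2 of the eIF2 subunits, for a part of eIF3, for eIF6 and eIF4A3 and for the release factor eRF1. The eIF1 call was lost in both genotypes once a trend on exon length was removed. Polysomal RNA held relatively less mRNA for eIF2D and for the delta and epsilon subunits of eIF2B, whereas 0 of the 8 elongation genes passed the test in either genotype. In glh1, 14 of the 37 genes were higher and 5 lower in polysomal RNA (edgeR quasi-likelihood test, Benjamini-Hochberg adjusted p under 0.05), against 23.6% higher and 19.1% lower (42.7% in all) of the 16526 genes tested. In wt, 12 were higher and 3 lower, against 20.1% higher and 19.8% lower (39.9% in all) of the genes tested. Single libraries moved these counts. Without total glh1 library 1 or 3, 5 genes were higher and 4 lower in polysomal glh1 (24.3%, where 30.1% and 28.8% of all genes were called), and without total wt library 3, 6 were higher and 3 lower in polysomal wt (24.3%, where 26.3% of all genes were called). As shares of the 37, the counts with all libraries are 37.8% higher and 13.5% lower in glh1, and 32.4% higher and 8.11% lower in wt. Polysomal libraries lay wholly above the total libraries for 18 of the 37 genes and wholly below for 7 in glh1, or 48.6% and 18.9% (34.3% and 29.3% of all genes), and for 15 and 5 in wt, or 40.5% and 13.5% (25% and 24.2% of all genes). The median log2 fold change of the 37 was 0.28 in glh1, where that of all genes was 0.13, and 0.39 in wt, where that of all genes was 0.06. The values are relative to the mRNA population of each fraction, not to the number of ribosomes. The 2 fractions of a culture come from 1 lysate and so from the same cells, and the cell types in which an mRNA was on polysomes were not measured. Between genotypes, in the comparisons that follow, a change in RNA per cell cannot be told apart in whole worms from a change in the share of a cell type.

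The calls in the 2 genotypes come from separate libraries with a shared estimate of the spread. Of the 14 genes higher in polysomal glh1, 11 were higher in polysomal wt too, 78.6% of the glh1 calls and 91.7% of the wt calls, while over all genes the corresponding shares were 72.5% and 85.1%. All 3 genes lower in polysomal wt were lower in polysomal glh1, 60% of the glh1 calls and 100% of the wt calls, against 81.9% and 79.2% over all genes. With upper-quartile scaling the median of all genes was 0.28 in glh1 and 0.32 in wt, and the counts were 17 higher and 4 lower in glh1 and 19 higher and 3 lower in wt. All genes then split into 4808 higher and 2624 lower in glh1, against 3901 and 3163 with TMM scaling, and into 4833 higher and 2384 lower in wt, against 3321 and 3272. The ratio of polysomal to total CPM was above 1 in all 6 cultures for 18 of the 37 genes, or 48.6%, where all genes gave 31.7%. It was below 1 in all 6 for 6 genes (clu-1, eif-2A, eif-2Bdelta, eif-2Bepsilon, eif-2Bgamma and eif-2D), or 16.2%, where all genes gave 26.9%, and on both sides for 13.

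**Figure D2:**
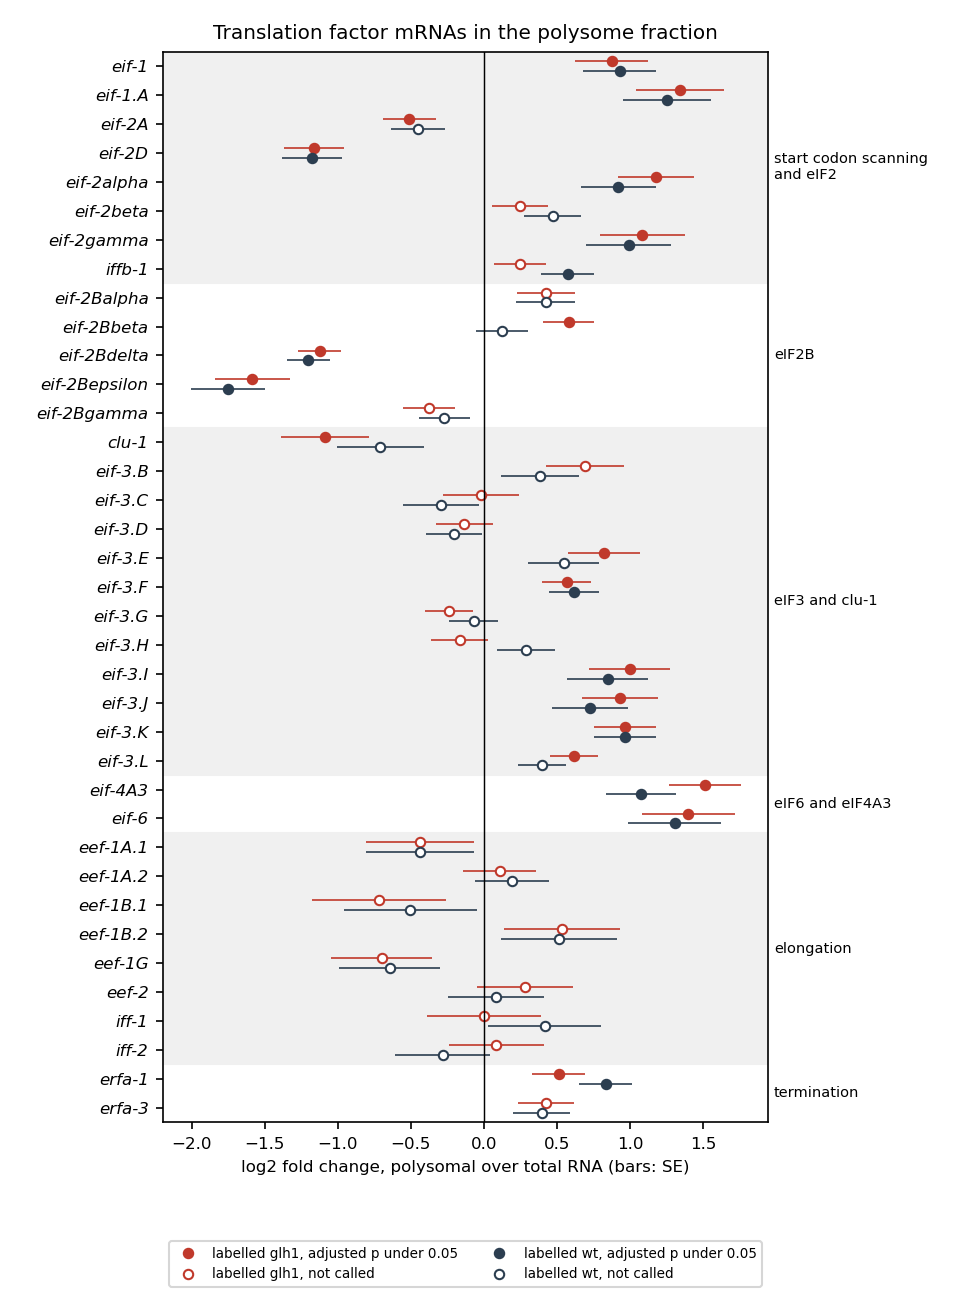
Log2 fold change of polysomal over total RNA for the 37 mRNAs, grouped by role, with bars of 1 SE from the edgeR model, red for libraries labelled glh1 and dark blue for wt, and filled points where the adjusted p was under 0.05. Values run from -1.59 (eif-2Bepsilon) to 1.51 (eif-4A3) in glh1 and from -1.75 (eif-2Bepsilon) to 1.304 (eif-6) in wt, and no elongation gene has a filled point.

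Among the 8 genes of start codon scanning and eIF2, 4 were higher and 2 lower in polysomal glh1, and 5 were higher and 1 lower in polysomal wt. The mRNA of eif-1.A (WBGene00019162, WBcel235 chromosome IV, 4810934 to 4811983), which encodes the scanning factor eIF1A, measured 426, 456 and 847 CPM in polysomal glh1, against 226, 245 and 211 CPM in total glh1. In wt it measured 373, 606 and 555 CPM in polysomal libraries, against 165, 272 and 207 CPM in total libraries. The groups did not overlap in either genotype, and polysomal glh1 library 3 was the highest. The log2 fold changes were 1.34 ± 0.30 in glh1 (SE, edgeR adjusted p = 0.00394) and 1.25 ± 0.30 in wt (edgeR adjusted p = 0.00606), and both calls held under all 19 alternatives tried. The companion factor gene eif-1 rose as well, by 0.87 ± 0.25 in glh1 and 0.93 ± 0.25 in wt on the log2 scale. With a trend on exon length removed from each library, eif-1 no longer passed in glh1 (edgeR adjusted p = 0.252) or in wt (edgeR adjusted p = 0.152). Its glh1 call was also lost without total glh1 library 1 or 3, and with only the glh1 libraries in the model.

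The 3 subunits of eIF2 did not all pass the test. The mRNA of eif-2alpha, whose protein carries the regulatory phosphorylation site, measured 215, 251 and 459 CPM in polysomal glh1, against 140, 148 and 121 CPM in total glh1. In wt it measured 277, 295 and 252 CPM in polysomal libraries, against 165, 141 and 130 CPM in total libraries. The mRNA of eif-2gamma, the GTP-binding subunit, averaged 381 ± 189 CPM in polysomal glh1, against 180 ± 10.96 CPM in total glh1, and 329 ± 45.3 CPM in polysomal wt, against 165 ± 25.1 CPM in total wt (SD, n = 3 each). For both subunits every polysomal library lay above every total library of its genotype. The log2 fold changes of eif-2alpha were 1.18 ± 0.26 in glh1 (SE, edgeR adjusted p = 0.00354) and 0.92 ± 0.26 in wt (edgeR adjusted p = 0.0137), and those of eif-2gamma 1.08 ± 0.29 (edgeR adjusted p = 0.00990) and 0.99 ± 0.29 (edgeR adjusted p = 0.0167). The third subunit, eif-2beta, measured 0.25 ± 0.20 in glh1 (edgeR adjusted p = 0.324) and 0.47 ± 0.20 in wt (edgeR adjusted p = 0.0719). With culture as a block, the wt value of eif-2beta was 0.48 and passed (edgeR adjusted p = 0.0445), and it also passed without wt culture 1, polysomal wt library 1 or total wt library 2 (0.60 to 0.65). The eif-2alpha and eif-2gamma calls in wt were lost without polysomal wt library 2 or total wt library 3, and the eif-2gamma call in glh1 without total glh1 library 1 or 3. With only the glh1 libraries in the model, the eif-2gamma call in glh1 was lost too.

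Other factors that handle initiator tRNA or join the subunits differed in direction. The gene eif-2D (WBGene00016113, chromosome II, 5691721 to 5693939) encodes a factor that can place tRNA on the ribosome without GTP and that takes part in recycling in other eukaryotes. It measured 9.84, 12.3 and 10.5 CPM in polysomal glh1, against 24.0, 24.0 and 25.2 CPM in total glh1, and 12.0, 12.4 and 9.57 CPM in polysomal wt, against 19.2, 26.997 and 30.8 CPM in total wt. No polysomal library reached the lowest total library of its genotype. The log2 fold changes were -1.17 ± 0.21 in glh1 (SE, edgeR adjusted p = 9.82e-04) and -1.18 ± 0.20 in wt (edgeR adjusted p = 9.03e-04), and both held under all 19 alternatives. The eIF2A gene eif-2A fell by 0.51 ± 0.18 on the log2 scale in glh1 (edgeR adjusted p = 0.0388), a call lost without any 1 glh1 library but polysomal glh1 library 1, and had -0.45 ± 0.18 in wt (edgeR adjusted p = 0.0651). The glh1 call of eif-2A held under 10 of 19 alternatives and was also lost with upper-quartile scaling and with the exon length trend removed. The eIF5B gene iffb-1 rose by 0.57 ± 0.18 in wt (edgeR adjusted p = 0.0228), a call lost without total wt library 1 or 3 or polysomal wt library 3, and had 0.25 ± 0.18 in glh1 (edgeR adjusted p = 0.279). The wt call of iffb-1 was also lost with only the wt libraries in the model.

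The 5 subunits of the exchange factor eIF2B parted into subunits that fell in polysomal RNA and subunits that did not. The mRNA of eif-2Bdelta (WBGene00008670, chromosome V, 9513824 to 9517649), a regulatory subunit, measured 22.8, 23.3 and 21.6 CPM in polysomal glh1, against 47.6, 50.9 and 49.2 CPM in total glh1. In wt it measured 25.5, 27.3 and 26.1 CPM in polysomal libraries, against 52.7, 63.3 and 65.8 CPM in total libraries. Every polysomal value was thus below every total value, and the cultures of a group lay close together. The fold changes were -1.13 ± 0.15 in glh1 (SE, edgeR adjusted p = 1.81e-04) and -1.20 ± 0.15 in wt (edgeR adjusted p = 9.16e-05), on the log2 scale.

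The mRNA of the catalytic subunit gene eif-2Bepsilon (WBGene00008428, chromosome II, 8661869 to 8664721) had the lowest fold change of all 37. It measured 6.39, 5.51 and 4.60 CPM in polysomal glh1, against 16.6, 17.1 and 15.96 CPM in total glh1. In wt it measured 8.63, 6.57 and 5.10 CPM in polysomal libraries, against 20.0, 18.1 and 30.5 CPM in total libraries. The groups did not overlap. The log2 fold changes were -1.59 ± 0.26 in glh1 (SE, edgeR adjusted p = 6.19e-04) and -1.75 ± 0.26 in wt (edgeR adjusted p = 2.90e-04). The delta and epsilon calls held in both genotypes under all 19 alternatives.

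The beta subunit gene eif-2Bbeta rose in glh1, by 0.58 ± 0.18 on the log2 scale (SE, edgeR adjusted p = 0.0194), with 22.0, 22.9 and 24.3 CPM in polysomal glh1, against 14.9, 15.9 and 15.5 CPM in total glh1. In wt it had 0.12 ± 0.18 (edgeR adjusted p = 0.601), with 21.3, 24.6 and 23.8 CPM in polysomal libraries, against 16.6, 24.3 and 23.03 CPM in total libraries, which overlapped. The glh1 call was lost when any 1 of the 3 total glh1 libraries was left out, and with no filter on low counts. The alpha and gamma subunits did not pass in either genotype, at 0.42 ± 0.20 and -0.38 ± 0.18 in glh1 and 0.42 ± 0.20 and -0.27 ± 0.18 in wt. The alpha subunit gene eif-2Balpha passed in wt without total wt library 2 (0.60, edgeR adjusted p = 0.0410), and the gamma subunit gene eif-2Bgamma in glh1 with the spread estimated without wt culture 1 (-0.46, edgeR adjusted p = 0.0175).

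**Figure D3:**
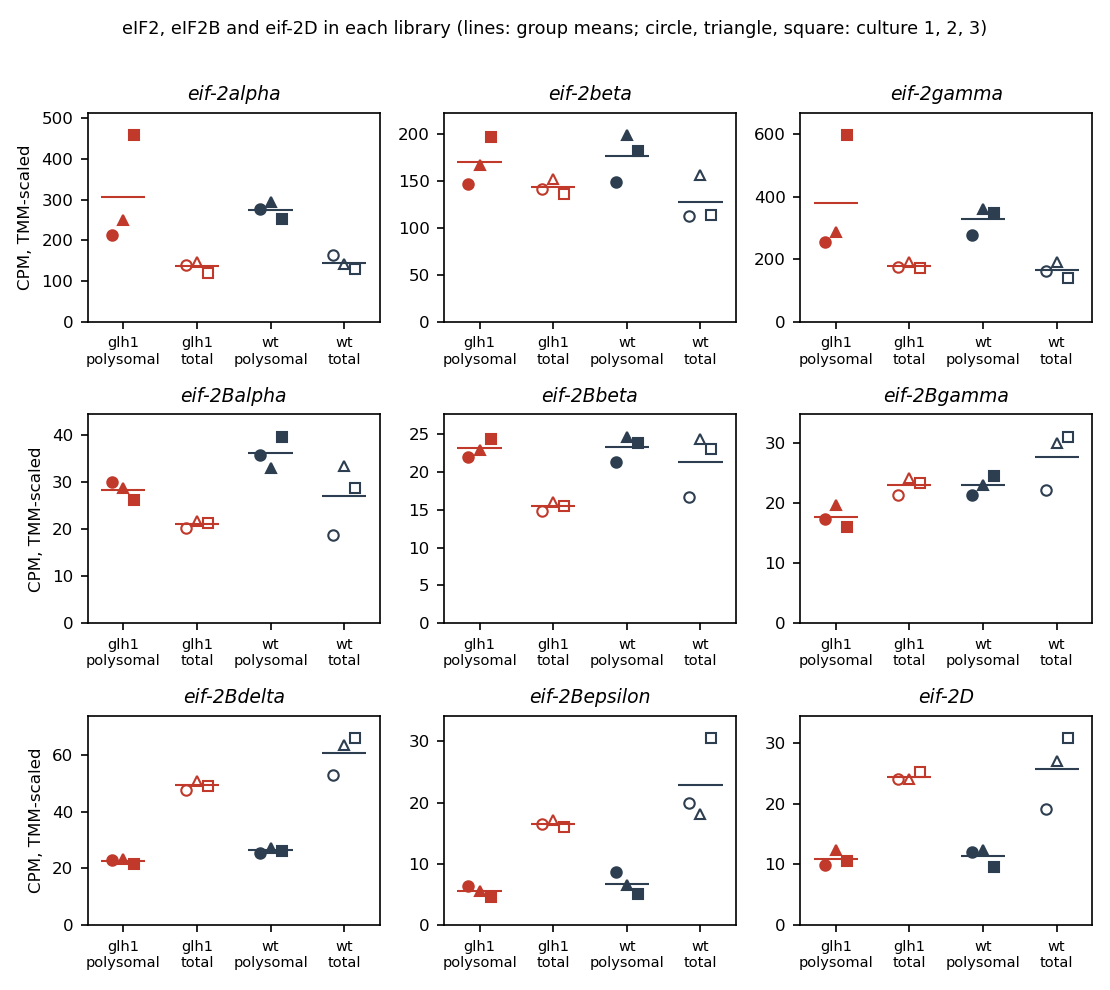
TMM-scaled CPM of the eIF2 subunits, the eIF2B subunits and eif-2D in each of the 12 libraries, with filled symbols for polysomal and open symbols for total RNA, circles, triangles and squares for cultures 1, 2 and 3, and a line at each group mean. Polysomal values of eif-2Bdelta, eif-2Bepsilon and eif-2D lie below all total values of the same genotype, those of eif-2alpha and eif-2gamma above, and polysomal glh1 library 3 is the highest point for eif-2alpha, at 459 CPM, and eif-2gamma, at 598 CPM.

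The subunits of eIF3 followed no single pattern. In glh1, 6 of the 11 subunits were higher in polysomal RNA (eif-3.E, eif-3.F, eif-3.I, eif-3.J, eif-3.K and eif-3.L) and 0 lower, and in wt 4 were higher (eif-3.F, eif-3.I, eif-3.J and eif-3.K) and 0 lower. The mRNA of eif-3.K, a small peripheral subunit, measured 86.4, 83.1 and 114.7 CPM in polysomal glh1, against 47.1, 50.7 and 48.0 CPM in total glh1, and 84.0, 109 and 114 CPM in polysomal wt, against 39.0, 65.2 and 52.6 CPM in total wt. Its log2 fold changes were 0.96 ± 0.21 in glh1 (SE, edgeR adjusted p = 0.00348) and 0.97 ± 0.21 in wt (edgeR adjusted p = 0.00355). It kept its call in both genotypes under every alternative but the 2-fold minimum. The gene of the beta-propeller subunit eif-3.I rose by 1.00 ± 0.28 in glh1 and 0.85 ± 0.28 in wt, and that of eif-3.J, which is loosely bound in other species, by 0.93 ± 0.26 in glh1 and 0.73 ± 0.26 in wt.

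The other subunits passed in glh1 alone or in neither genotype. The genes eif-3.E and eif-3.L measured 0.82 ± 0.25 and 0.62 ± 0.16 in glh1, and 0.54 ± 0.25 (edgeR adjusted p = 0.0940) and 0.40 ± 0.16 (edgeR adjusted p = 0.0711) in wt. The subunits eif-3.C, eif-3.D, eif-3.G and eif-3.H lay between -0.24 and -0.02 in glh1 and between -0.29 and 0.29 in wt. The core subunit eif-3.B measured 382, 413 and 773 CPM in polysomal glh1, against 323, 346 and 301 CPM in total glh1, a log2 fold change of 0.69 ± 0.27 (edgeR adjusted p = 0.0535) that passed without polysomal glh1 library 1 (0.82) or 2 (0.84), and 0.38 ± 0.27 in wt (edgeR adjusted p = 0.276). Calls of this complex depended on single libraries and settings. With only the glh1 libraries in the model, the glh1 calls of eif-3.E, eif-3.F, eif-3.I and eif-3.J were lost. In wt, the eif-3.J call held under 10 of 19 alternatives and was lost with the exon length trend removed, with DESeq2 size factors and with rlog values, and the eif-3.I call was lost with rlog values. In wt also, those of eif-3.I and eif-3.J were each lost without total wt library 1 or 3 or polysomal wt library 2 or 3, that of eif-3.F without polysomal wt library 2 or total wt library 3, and eif-3.L passed without polysomal wt library 1 (edgeR adjusted p = 0.0405), and in glh1 those of eif-3.E, eif-3.F, eif-3.I, eif-3.J and eif-3.L were lost without total glh1 library 1 or 3.

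The gene clu-1 (WBGene00000550, chromosome III, 9516631 to 9521460) encodes a large protein of the clustered mitochondria family that has also been described as an eIF3-associated factor in yeast. It measured 30.6, 32.2 and 11.6 CPM in polysomal glh1, against 49.8, 51.5 and 57.4 CPM in total glh1. In wt it measured 52.0, 64.5 and 47.8 CPM in polysomal libraries, against 75.6, 93.8 and 99.2 CPM in total libraries. All polysomal values lay below the total values of their genotype, and polysomal glh1 library 3 was the lowest of the 12. The gene fell by 1.09 ± 0.30 on the log2 scale in glh1 (SE, edgeR adjusted p = 0.0115) and had -0.71 ± 0.30 in wt (edgeR adjusted p = 0.0747). With the exon length trend removed, the glh1 value no longer passed (edgeR adjusted p = 0.0712), and at 4405 bases of exon clu-1 is the longest of the 37.

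The genes of eIF6 and eIF4A3 had the largest rises of the 37 in polysomal glh1. The gene eif-6 encodes the factor that keeps free large subunits from joining small ones, and eif-4A3 a helicase of the exon junction complex. The mRNA of eif-6 measured 150, 163 and 382 CPM in polysomal glh1, against 87.0, 92.2 and 84.9 CPM in total glh1, and 190, 251 and 224 CPM in polysomal wt, against 77.0, 114 and 78.7 CPM in total wt. That of eif-4A3 measured 192, 197 and 371 CPM in polysomal glh1, against 93.9, 88.4 and 84.0 CPM in total glh1, and 231, 203 and 184 CPM in polysomal wt, against 103, 99.6 and 90.2 CPM in total wt. Every polysomal library lay above every total library of its genotype, and polysomal glh1 library 3 lay well above the other polysomal glh1 libraries. The log2 fold changes of eif-6 were 1.40 ± 0.32 in glh1 (SE, edgeR adjusted p = 0.00422) and 1.304 ± 0.32 in wt (edgeR adjusted p = 0.00646), and those of eif-4A3 1.51 ± 0.24 (edgeR adjusted p = 6.21e-04) and 1.08 ± 0.24 (edgeR adjusted p = 0.00404). All 4 calls held under the 19 alternatives, library 3 left out included. The exons of eif-4A3 overlap 2 small nucleolar RNA genes on the same strand, by 213 and 110 bases, and those of eif-6 overlap gale-1 by 34 bases, so shared reads are uncertain there.

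Of the release factors, erfa-1, which encodes the stop codon reader eRF1, was higher in polysomal RNA. It measured 117, 129 and 132 CPM in polysomal glh1, against 86.7, 91.0 and 87.7 CPM in total glh1, and 145, 206 and 183 CPM in polysomal wt, against 86.3, 119 and 94.3 CPM in total wt. The log2 fold changes were 0.51 ± 0.18 in glh1 (SE, edgeR adjusted p = 0.0376) and 0.83 ± 0.18 in wt (edgeR adjusted p = 0.00362). The wt call kept its side of the threshold without any 1 library, whereas the glh1 call was lost when any 1 of the 6 glh1 libraries was left out. With all libraries, the glh1 call was also lost with DESeq2 size factors, with no filter on low counts and with ribosomal RNA genes removed. It held under 9 of 19 alternatives. The GTPase partner gene of erfa-1, erfa-3, measured 0.42 ± 0.19 in glh1 (edgeR adjusted p = 0.0945) and 0.39 ± 0.19 in wt (edgeR adjusted p = 0.124), and its polysomal to total ratio was above 1 in all 6 cultures. It passed in glh1 without polysomal glh1 library 3 (0.54, edgeR adjusted p = 0.0318) and in wt without polysomal wt library 1 (0.59, edgeR adjusted p = 0.0196) or wt culture 1 (0.50, edgeR adjusted p = 0.0418).

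The elongation factor mRNAs held most of the counts of the 37, and most of them differed widely between cultures in their polysomal share. None of the 8 passed in either genotype, with log2 fold changes from -0.72 (eef-1B.1) to 0.53 (eef-1B.2) in glh1 and from -0.65 (eef-1G) to 0.51 (eef-1B.2) in wt. The median SE of the 8 was 0.36 in glh1 and 0.36 in wt, against 0.18 for the eIF2B subunits in each genotype. At the unadjusted 0.05 level 0 of the 8 passed in either genotype as well, where 51.5% of all genes did in glh1 and 48.9% in wt. The mRNA of eef-1A.1 measured 5518, 5519 and 10245 CPM in polysomal glh1, against 9263, 10004 and 9560 CPM in total glh1, and 3640, 6862 and 8004 CPM in polysomal wt, against 8750, 9455 and 6898 CPM in total wt. That of eef-2 measured 5177, 5377 and 10313 CPM in polysomal glh1, against 5677, 5777 and 5743 CPM in total glh1, and 3986, 4806 and 5251 CPM in polysomal wt, against 5277, 4531 and 3438 CPM in total wt. In both genes the total glh1 libraries lay close together, and polysomal glh1 library 3 was well above the other 2.

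Within each culture the mean log2 ratio of polysomal to total CPM over the 8 elongation genes was -0.55, -0.60 and 0.47 in glh1 cultures 1, 2 and 3, and -0.82, -0.03 and 0.49 in wt cultures 1, 2 and 3. The same mean over 80 cytosolic ribosomal protein genes was -0.74, -0.79 and 0.61 in glh1 and -0.43, 0.17 and 0.69 in wt. Both sets were thus lowest in glh1 cultures 1 and 2 and wt culture 1, and highest in culture 3 of either genotype. The gene eef-1A.2 differed, at 0.33, 0.41 and -0.54 in glh1 and -0.30, 0.39 and 0.52 in wt. The mean over sperm markers was high in the same culture 3 of glh1, at 0.34, 0.35 and 2.07 in glh1 and 1.43, 1.28 and 1.83 in wt. The 30 msp genes tested, of 31 in the table with at most 1 at 0 in a library, summed to 1425 to 4944 CPM in polysomal glh1, against 1088 to 1179 CPM in total glh1, and to 3957 to 5190 CPM in polysomal wt, against 1378 to 1848 CPM in total wt. The mean over 12 neuron markers was low in that culture, at -0.21, 0.03 and -1.19 in glh1 and -0.25, -0.20 and -0.57 in wt. These markers, none at 0 in any library, summed to 686 to 967 CPM in polysomal glh1, against 792 to 849 CPM in total glh1, and to 528 to 682 CPM in polysomal wt, against 583 to 725 CPM in total wt. Only in polysomal glh1 library 3 did any of them, 2 of the 12, lie under 1 CPM. The sum there was 686 CPM, against 840 CPM in total glh1 library 3, so the low mean rests in part on genes near the floor. The part of either marker list in the elongation factor values was not tested. Without polysomal glh1 library 3, eef-1B.1 (-1.56, edgeR adjusted p = 0.00318) and eef-1G (-1.13, edgeR adjusted p = 0.00824), genes of the exchange complex that recharges eEF1A, were lower in polysomal glh1. Without wt culture 1 the same genes still did not pass in wt (edgeR adjusted p = 0.988 and 0.659).

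**Figure D4:**
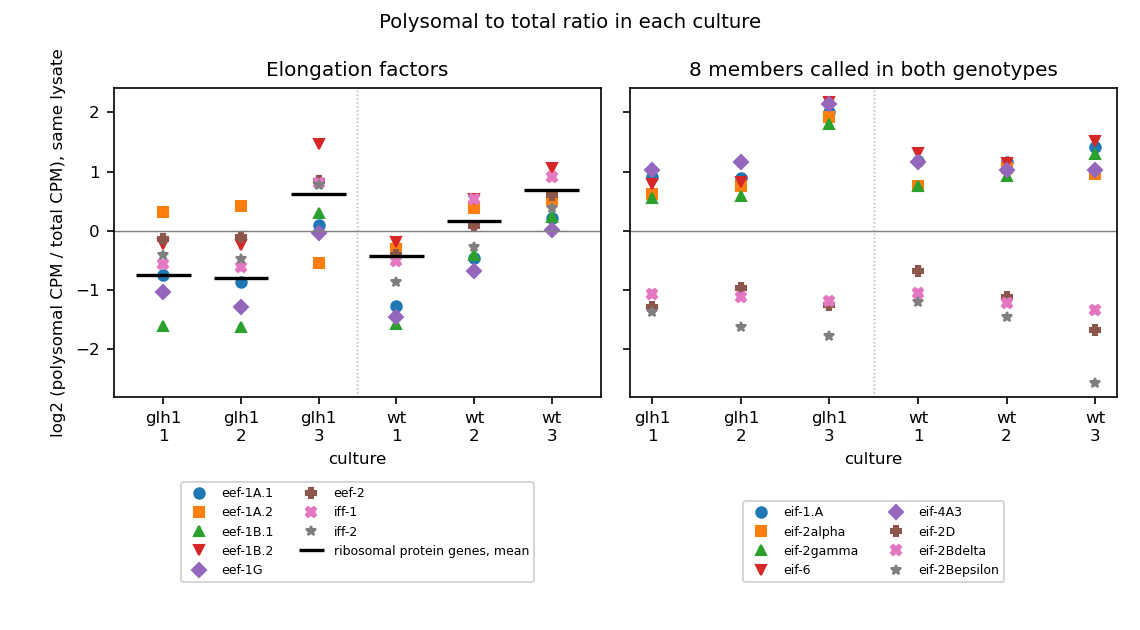
Log2 ratio of polysomal to total CPM in each of the 6 cultures, glh1 at the left and wt at the right of each panel, for the 8 elongation genes with the mean of 80 ribosomal protein genes as black bars (left panel) and for 8 genes called in both genotypes (right panel). The elongation genes run from a mean of -0.82 in wt culture 1 to 0.49 in wt culture 3, with eef-1A.2 alone lowest in glh1 culture 3, at -0.54. The 8 genes of the right panel are a selection from the 11 higher and 3 lower in both genotypes in these same libraries. That each stays on 1 side of 0 in all 6 cultures follows in part from that choice.

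Elongation factors come in paralog pairs, and their balance was compared between fractions within each lysate, a comparison added after the values were seen. The ratio of eef-1B.1 to eef-1B.2, which encode different forms of the eEF1B exchange factor, was 2.43, 2.43 and 2.81 in polysomal glh1, against 6.33, 6.35 and 6.29 in total glh1, and 2.29, 2.73 and 2.95 in polysomal wt, against 5.99, 5.27 and 5.25 in total wt, each per kilobase of exon. The ratio was lower in polysomal RNA in 6 of 6 cultures, by a mean log2 difference of -1.18 ± 0.25 (SD, n = 6 cultures; exact sign-flip test, two-sided p = 0.0312, the smallest that 6 cultures allow, and 0.0938 adjusted over the 3 pairs). The ratio of eef-1A.1 to eef-1A.2 was 8.46, 8.86 and 27.5 in polysomal glh1, against 17.8, 21.4 and 17.7 in total glh1, and 8.52, 12.2 and 15.4 in polysomal wt, against 16.6, 22.1 and 19.0 in total wt. It was lower in polysomal RNA in 5 of 6 cultures, with a mean log2 difference of -0.64 ± 0.71 (SD; exact two-sided p = 0.0938, adjusted 0.141), and glh1 culture 3 went the other way. After adjustment 0 of the 3 pairs passed. No source used here says how reads shared by the near-identical eef-1A genes were divided between them.

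The eIF5A genes iff-1 and iff-2 form the third pair, iff-1 needed in the germline and iff-2 in the soma of this species. The ratio of iff-1 to iff-2 per kilobase was 1.74, 1.82 and 1.79 in polysomal glh1, against 1.93, 1.99 and 1.75 in total glh1, and 2.35, 5.70 and 4.12 in polysomal wt, against 1.85, 3.23 and 2.85 in total wt. The mean log2 difference between fractions was 0.24 ± 0.39 (SD, n = 6; exact two-sided p = 0.219). By culture the difference was -0.15, -0.13 and 0.03 in glh1 and 0.35, 0.82 and 0.53 in wt, so that the wt cultures were all positive and above all glh1 cultures, a difference that was not tested. In polysomal RNA all glh1 ratios lay below all wt ratios, and in total RNA wt culture 1 lay inside the glh1 range. Beside this, the 18 germline markers summed to 3128 to 3951 CPM in polysomal glh1, against 2482 to 4296 CPM in polysomal wt, and to 2907 to 3087 CPM in total glh1, against 3143 to 4943 CPM in total wt, with 0 of 18 at 0 in any library. Their part in the iff-1 to iff-2 ratio was not tested.

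Whether the polysomal share itself differed between the genotypes was asked with the interaction term. In that comparison 0 of the 37 genes were called, with 0 at an unadjusted p under 0.05 and 0 by DESeq2, where edgeR called 0% of all 16526 genes, and 491 had an unadjusted p under 0.05. The largest values were 0.45 ± 0.25 for eif-2Bbeta and -0.46 ± 0.28 for eif-3.H (SE, log2). By culture, the log2 ratio of eif-2Bbeta was 0.57, 0.52 and 0.64 in glh1, against 0.36, 0.02 and 0.05 in wt. That of erfa-1 was 0.43, 0.51 and 0.59 in glh1, against 0.75, 0.79 and 0.96 in wt, and that of eif-3.H was 0.01, 0.02 and -0.61 in glh1, against 0.45, 0.17 and 0.28 in wt. For these 3 genes the cultures did not overlap between genotypes, with glh1 higher for 1 of the 37 (2.70%) and lower for 2 (5.41%), where all genes gave 6.57% and 4.34%. The genes that passed in 1 genotype alone, such as clu-1, eif-3.E, eif-3.L and iffb-1, are thus not shown to differ between genotypes.

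The next question is how the factor mRNAs differed between genotypes in total RNA. In that comparison 0 of the 37 genes were called, against 0.944% of all genes tested, and 4 of the 37 (10.8%) had an unadjusted p under 0.05, against 17.8% of all genes. DESeq2 called 0 as well. The median log2 fold change was 0.01, where that of all genes was -0.07 and with upper-quartile scaling 0.08. Values ran from -0.76 ± 0.30 for clu-1 (SE, edgeR adjusted p = 0.218) to 0.49 ± 0.33 for iff-2 (edgeR adjusted p = 0.463). The smallest adjusted p-values belonged to eif-3.G, at 0.45 ± 0.17 (edgeR adjusted p = 0.195), eif-2Bbeta, at -0.46 ± 0.18 (edgeR adjusted p = 0.208), clu-1 and eif-3.L, at -0.36 ± 0.16 (edgeR adjusted p = 0.272). When only the total RNA libraries entered the model, eif-3.G was higher (0.52, edgeR adjusted p = 0.0426) and clu-1 lower (-0.69, edgeR adjusted p = 0.0164), 5.41% of the 37 where 8.4% of all genes were called.

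Groups of factors leaned one way without passing. All 5 eIF2B subunits had negative values in total RNA, from -0.47 to -0.27, and kept that sign under every alternative. The libraries of eif-2Bepsilon, eif-2Bdelta and eif-2Bbeta did not overlap between genotypes. All 8 elongation genes had positive values, from 0.07 to 0.49, of which 7 were positive without total glh1 library 2 or with the exon length trend removed, and 76 of 80 ribosomal protein genes were positive, also with 0 called. Glh1 libraries lay wholly above wt libraries for 6 of the 37 genes and wholly below for 6, 16.2% each, where all genes gave 16.6% above and 17.1% below.

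In polysomal RNA, too, 0 of the 37 genes were called between genotypes, against 1.06% of all genes tested, with 5 of the 37 (13.5%) at an unadjusted p under 0.05, against 15.7% of all genes. The median log2 fold change was 0.06, where that of all genes was -0.01. The lowest value was that of clu-1, with 30.6, 32.2 and 11.6 CPM in polysomal glh1, against 52.0, 64.5 and 47.8 CPM in polysomal wt, a log2 fold change of -1.14 ± 0.30 (SE, edgeR adjusted p = 0.106). DESeq2 called clu-1 (adjusted p = 0.0110) and eif-3.H (-0.63, adjusted p = 0.0425) lower. In edgeR clu-1 passed without polysomal glh1 library 3 (-0.80, adjusted p = 0.0264), without wt culture 1 (-1.26, adjusted p = 0.0483) and with the exon length trend removed (-1.16, adjusted p = 0.0265). Without wt culture 1, eif-3.H (-0.73, edgeR adjusted p = 0.0447) and erfa-1 (-0.69, edgeR adjusted p = 0.0253) were lower as well. Those settings called more of all genes too, 4.63% with DESeq2, 2.38% without polysomal glh1 library 3, 8.77% without wt culture 1 and 1.89% with the length trend removed, beside 5.41%, 2.70%, 8.11% and 2.70% of the 37. With all libraries eif-3.H had 66.0, 74.0 and 46.0 CPM in polysomal glh1, against 90.7, 105 and 90.1 CPM in polysomal wt, a log2 fold change of -0.62 ± 0.20 (edgeR adjusted p = 0.156), and erfa-1 had -0.50 ± 0.18 (edgeR adjusted p = 0.213).

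The highest value in polysomal RNA was that of iff-2, at 370, 380 and 869 CPM in polysomal glh1, against 262, 286 and 348 CPM in polysomal wt, a log2 fold change of 0.85 ± 0.33 (SE, edgeR adjusted p = 0.233). Of the 8 elongation genes 7 were positive, but 2 were without wt culture 1 and 3 without polysomal glh1 library 3, so the lean rested on those libraries. Of the ribosomal protein genes 11 of 80 were positive, with 0 called. All 5 eIF2B subunits were negative again, from -0.38 to -0.01, and 4 of 5 with upper-quartile scaling, the strict filter or rlog values and without polysomal wt library 2 or 3. Polysomal glh1 libraries lay wholly above polysomal wt libraries for 3 of the 37 genes and wholly below for 7, or 8.11% and 18.9%, where all genes gave 9.48% and 8.08%.

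**Figure D5:**
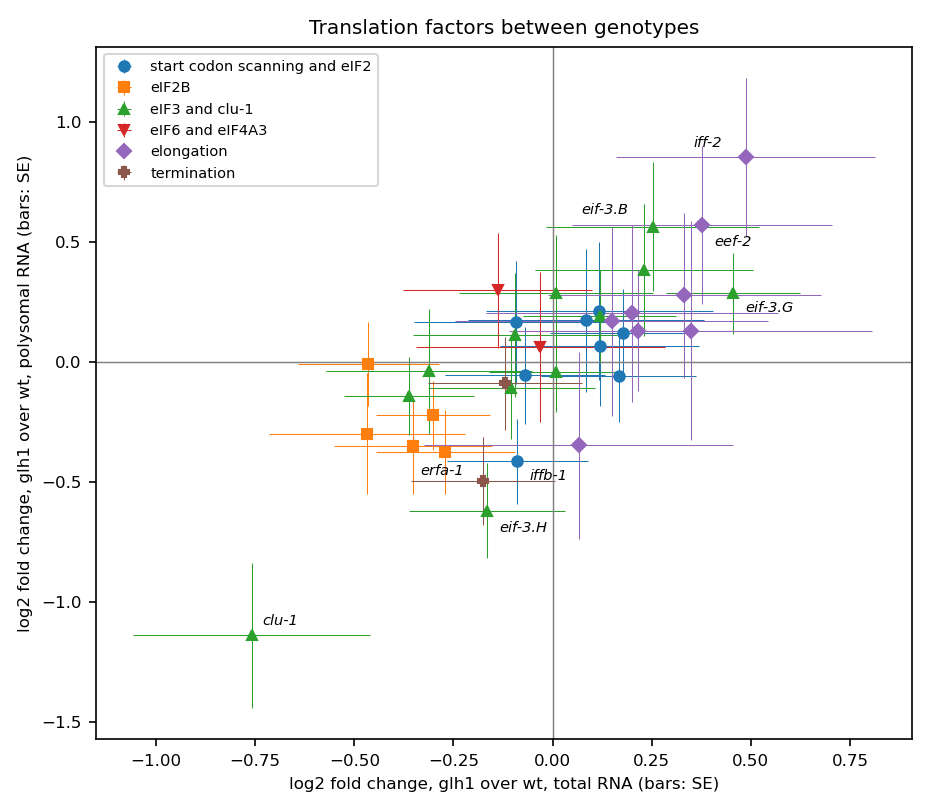
Log2 fold change of glh1 over wt for the 37 mRNAs in total RNA (horizontal) and polysomal RNA (vertical), with bars of 1 SE and symbols by role. The total and polysomal libraries of a culture share a lysate, clu-1 lies lowest on both axes at -0.76 and -1.14, the eIF2B subunits lie left of and below 0, and no gene passed the test on either axis.

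Other genes of translation, taken from lists made with earlier results of these data known, gave the setting in the polysome comparison. The counts below stand beside shares over all 16526 genes of 23.6% higher and 19.1% lower in glh1 (42.7% in all), and 20.1% higher and 19.8% lower in wt (39.9% in all). Of 11 cap-binding and helicase partner genes, 4 were higher and 1 lower in polysomal glh1, and 3 higher and 2 lower in polysomal wt. Among those higher were the cap-binding genes ife-2 (1.35 ± 0.31 in glh1 and 1.31 ± 0.31 in wt) and ife-4 (0.90 ± 0.21 in glh1 and 0.98 ± 0.21 in wt). The scaffold gene ifg-1 of eIF4G fell in wt (-1.004 ± 0.16, edgeR adjusted p = 4.25e-04), and its interaction term, 0.40 ± 0.22, was not called. Of 15 genes that control eIF2, eEF2 and TOR signalling, 3 were higher and 7 lower in each genotype. Of these, let-363, the TOR kinase, fell (-1.92 ± 0.29 in glh1 and -1.89 ± 0.29 in wt), as did its partner daf-15, the Raptor homolog (-1.32 ± 0.17 in glh1 and -1.67 ± 0.18 in wt). The eIF2alpha kinase gene pek-1 fell in glh1 (-1.45 ± 0.26). Of 11 genes of factor modification and ribosome recycling, 1 was higher and 5 lower in glh1 and 1 higher and 6 lower in wt. The rescue factor gene hbs-1 fell (-0.86 ± 0.17 in glh1 and -1.26 ± 0.17 in wt), and dhps-1, whose enzyme starts the hypusine modification of eIF5A, rose by 0.86 ± 0.22 in glh1. Of 5 mitochondrial translation factor genes 0 were higher and 3 lower in each genotype, among them tufm-2, an elongation factor Tu gene, which fell (-1.34 ± 0.20 in glh1 and -1.08 ± 0.20 in wt). Of 80 ribosomal protein genes 1 was higher (rpl-42) and 3 lower in each. Between genotypes 0 genes of these 5 lists were called in either fraction, against 0.944% of all genes in total RNA and 1.06% in polysomal RNA. The interaction called 0 of them too, as it did over all genes. Genes were named from the 3 smallest adjusted p-values of each list in a comparison. A gene named here with a value for 1 genotype alone may have passed in the other too. Such a gene is thus not shown to differ between genotypes.

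The 37 genes lie on all chromosomes, 12 on I, 10 on II, 7 on III, 2 on IV, 5 on V and 1, eef-1A.2, on X. Shorter genes tended to have higher polysomal values. The Spearman correlation of exon length with the log2 fold change of polysomal over total RNA was -0.23 across the 37 genes in glh1 and -0.31 in wt, against -0.40 and -0.45 across 16510 genes, all of which share the same libraries. Lengths ran from 582 bases of exon in eif-1 to 4405 in clu-1. With the length trend removed, 16 of the 37 genes were higher and 3 lower in polysomal glh1, where 39% of all genes were called, and 13 higher and 3 lower in polysomal wt, where 34.6% were called. Identical counts in a second gene were found for 0 of the 37. Exons of 12 of them overlap an exon of a gene on the opposite strand, and no source used here says if reads were assigned by strand.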

How the data were processed

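The table the authors deposited holds estimated counts per gene for 12 libraries of whole worm mRNA (75 cycles, stranded kit, per the labels), of which 3.79 to 4.80% per library are not whole numbers. The submitters' processing notes name DESeq2 1.24.0 with R 3.6.1, Trimmomatic 0.36, RSEM 1.3.0 and STAR 2.6.1b, without saying which made the counts. The authors also deposited log2-scale rlog values for 12709 genes, all 37 factor genes included, used here as an alternative. Gene symbols, coordinates and exon lengths are those of Ensembl release 115 (WBcel235). The 37 genes and the gene lists were chosen with earlier results of these data known.

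Counts were rounded, filtered with filterByExpr (16526 genes kept, all 37 among them), scaled by TMM and fitted with edgeR 4.0.16 (R 4.3.3; robust quasi-likelihood F-test) over 4 groups of 3. Calls are Benjamini-Hochberg adjusted p under 0.05 over all genes tested, and CPM are TMM-scaled, with a prior count of 2 for log2 values. Members were named by rank of fold change among called genes, or by the 4 smallest adjusted p-values where fewer than 4 were called, with the eIF2, eIF2B and eIF3 subunits, the release factors and the paralog pairs throughout. Polysomal and total libraries of a number share a lysate, so they are paired by design. The main model has no culture term and does not use this pairing, and the fit with culture as a block is an alternative. The deviations of paired libraries from their group means correlated at 0.0989, -0.163 and -0.206 in glh1 and 0.756, 0.440 and 0.303 in wt. Total glh1 libraries 2 and 3 correlated best with polysomal glh1 libraries 3 and 2, and total wt library 3 with polysomal wt library 2. Alternatives used limma 3.58.1, DESeq2 1.42.0, other scalings and filters, an exon length offset, a culture block and libraries left out. The paralog ratio test was added after the data were seen. Tables were made with Python 3.11.15, pandas 2.3.3 and matplotlib 3.10.9. PCR duplicates cannot be told from molecules in such counts.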

Additional observations from a re-analysis of the deposited data

How the results depend on the processing

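Of the results for single genes, 0 changed sign past the threshold under the alternatives tried. In the polysome comparison, with a 2-fold minimum 9 of the 37 genes were called in glh1 and 6 in wt, or 24.3% and 16.2%, where all genes gave 28.5% and 26.4%. With 1 library left out the counts ran from 9 to 20 in glh1 and from 9 to 18 in wt. These are 24.3 to 54.1% and 24.3 to 48.6% of the 37, where all genes gave 28.8 to 41.6% in glh1 and 26.3 to 39.2% in wt. The low counts were those without total glh1 library 1 or 3 and without total wt library 3, and a group then has 2 samples. With culture as a replicate block, 14 genes were higher and 5 lower in glh1 and 13 higher and 3 lower in wt, eif-2beta in wt being the call that changed. The shares were 51.4% of the 37 in glh1, where all genes gave 47.8%, and 43.2% in wt, where all genes gave 44.9%. With the block and the exon length offset together, 16 were higher and 5 lower in glh1 and 13 higher and 3 lower in wt. That is 56.8% in glh1 and 43.2% in wt, where all genes gave 46.6% and 42%. Between genotypes in polysomal RNA, 1 gene was called with the exon length offset, 2 with DESeq2, 3 without wt culture 1, and 0 to 1 with 1 library left out. In total RNA 2 were called when only the groups compared entered the model, and 0 to 0 with 1 library left out. The cause of these shifts was not tested. Leaving out a library changes the number of samples and the libraries used at once, and the 2-fold minimum can only remove calls. The interaction called 0 of the 37 genes in every alternative, while over all genes DESeq2 called 1 higher and 2 lower, and edgeR 1 lower without polysomal glh1 library 1. Replicate numbers are shared by the genotypes without a shared lysate. Same-number correlations were 0.117, 0.104 and 0.0877 in total RNA, where each library correlated best with its own number. In polysomal RNA they were 0.201, 0.0518 and 0.306, and 2 of 3 libraries did so. With that number as a block, 0 of the 37 genes were called between genotypes in either fraction. All genes then gave 0.823% in total RNA and 1.11% in polysomal RNA. Over all genes, DESeq2 called 407 higher and 460 lower in total RNA between genotypes, against 85 and 71 with edgeR, and 458 higher and 307 lower in polysomal RNA, against 90 and 85. With 3 libraries a group and a median SE of 0.25 for the 37 genes, small differences between genotypes were not detectable.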
